A study of Mus musculus with 24 samples.

Results

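Hepatocytes differ along the path of blood from the portal tract to the central vein, and 10 genes that mark the hepatocytes around the central vein were followed in the liver of Mup-KO mice and WT controls. They were chosen by name as pericentral marker genes, with earlier results of these data known. The genes are Glul, Oat, Slc1a2, Rhbg, Cyp2e1, Cyp1a2, Axin2, Lgr5, Tbx3 and Lect2, and make up 10 of the 25746 genes counted. All 10 passed the filter on low counts, which 12330 genes passed. Liver RNAseq was available from 24 C57BL/6N mice aged 12 weeks, with 6 mice each of male WT (mWT), male KO (mKO), female WT (fWT) and female KO (fKO). KO mice were homozygous for a CRISPR/Cas9 deletion of the whole cluster of Mup genes, which encode the major urinary proteins that liver secretes. The KO line goes back to a single male founder, so the deletion cannot be told apart from other changes that this founder passed on. Both genotypes were fed chow ad libitum, were scanned by microCT under isoflurane and were fasted for some hours before the liver was taken, so no group was free of these conditions.

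The pericentral programme is set by Wnt proteins and R-spondins that endothelial cells of the central vein release. They stabilise β-catenin in the nearest hepatocytes, where it acts with TCF factors to switch on target genes, while hepatocytes near the portal tract carry out urea synthesis, gluconeogenesis and amino acid breakdown. Pericentral hepatocytes are known for capturing ammonia that escaped the urea cycle as glutamine and for oxidising drugs with cytochrome P450 enzymes.

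Each library held between 15361901 and 26261394 counted reads, with a median of 16443681 in mWT and 20763735 in fWT mice. Mup genes took 1.70% to 3.68% of the counted reads in mWT and 0.344% to 0.555% in fWT mice, and at most 11 reads in any KO mouse, so each library carried the genotype of its label. The hepatocyte markers Alb, Apoa1, Apob, Ttr, Trf, Serpina1a, Fgb, Tdo2 and Hnf4a together had between 107195 and 168870 CPM in every mouse, where CPM is a count scaled to a common library size with the TMM method. Libraries were made from a homogenized piece of each liver, not from sorted cells, and the paper does not state where in the liver it was taken. For each value given here, fewer pericentral hepatocytes and less RNA per pericentral hepatocyte cannot be told apart.

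Promoter sequences are shown for Lect2 and Slc1a2, which hold the letters ATCAAAG, a core that TCF factors are known to prefer, and for Glul, a classic pericentral gene, which does not. The capitals mark this motif. Both strands were searched, the motif reading CTTTGAT on the other one, and the windows were taken from RefSeq on GRCm38.p6, from 250 bases before the start of transcription onwards.
Lect2, chr13:56548539-56548788, minus strand: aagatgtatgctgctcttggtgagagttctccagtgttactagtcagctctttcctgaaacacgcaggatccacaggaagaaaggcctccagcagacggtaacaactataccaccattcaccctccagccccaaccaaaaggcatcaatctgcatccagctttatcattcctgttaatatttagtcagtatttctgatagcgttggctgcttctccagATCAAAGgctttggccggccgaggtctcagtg
Slc1a2, chr2:102706188-102706355, plus strand: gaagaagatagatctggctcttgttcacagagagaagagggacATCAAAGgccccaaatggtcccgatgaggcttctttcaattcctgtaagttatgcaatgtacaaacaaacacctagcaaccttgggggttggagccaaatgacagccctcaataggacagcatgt
Glul, chr1:153899679-153899928, plus strand: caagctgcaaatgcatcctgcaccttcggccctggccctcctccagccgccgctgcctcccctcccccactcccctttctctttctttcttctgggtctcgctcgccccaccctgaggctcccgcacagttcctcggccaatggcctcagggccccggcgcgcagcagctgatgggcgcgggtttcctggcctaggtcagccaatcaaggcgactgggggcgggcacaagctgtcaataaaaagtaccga
The motif began 32 bases before the start in Lect2 and 207 bases before it in Slc1a2. The Slc1a2 start in RefSeq lies 47779 bp inside the GENCODE gene, and its window was shortened to leave out an annotated exon. Over all 32851 promoters, 3.73% held this motif, against 2 of the 7 members with a sequence. The shorter CTTTGA, which every longer match contains, was found in 4 of the 7 (Lect2, Slc1a2, Cyp2e1 and Cyp1a2) and in 5257 of all promoters. The letters TTCNNNGAA, the core that STAT5 binds, were in 0 of the 7 and in 8.30% of all promoters, and TATAAA was in Cyp2e1 and Cyp1a2 and in 13.6% of all. The windows of Glul, Oat and Axin2 held none of the 4 motifs. Sequences of Lgr5, Tbx3 and Rhbg were not used here. A match describes these letters only and does not show that a factor binds.

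Levels of the 10 genes can be compared with each other only per length, as CPM divided by the kilobases of exon (RPKM). Cyp2e1 stood far above the others, with a median of 3911 RPKM over the 24 mice and 2780 RPKM in its lowest mouse. Oat, Cyp1a2 and Glul followed with medians of 353, 330 and 317 RPKM, and their ranges over mice overlapped. Lect2 (median 118 RPKM) and Slc1a2 (median 21.3 RPKM) each lay below the gene before them in 24 of 24 mice. The last 4 genes were low, at medians of 3.71 RPKM for Tbx3, 3.49 for Rhbg, 1.005 for Axin2 and 0.779 for Lgr5, with ranges that overlapped between neighbours. Within single mice, Tbx3 lay above Rhbg in 12 of 24, Rhbg above Axin2 in 24 and Axin2 above Lgr5 in 19. Counts per library ran from 190 to 823 reads for Tbx3, from 55 to 204 for Rhbg, from 34 to 250 for Axin2 and from 72 to 323 for Lgr5.

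Deletion of the Mup cluster moved none of the 10 genes past the threshold. The quasi-likelihood test of edgeR was run in a single fit of all 24 libraries, and a gene was called when its Benjamini-Hochberg adjusted p over all 12330 genes was under 0.05. In males, 0 of 10 were called, where 0.211% of all genes tested were called, 1 of the 10 had an unadjusted p under 0.05 as 10.6% of all genes did, and DESeq2 also called 0. In females, 0 of 10 were called (0.0892% of all genes), 0 had an unadjusted p under 0.05 (4.87% of all genes), and DESeq2 called 0. These shares of called genes include the deleted Mup genes. With the Mup genes removed before testing, 2 genes in all were called in males and 0 in females. The median log2 fold change of the members was −0.04 in males and −0.09 in females, beside −0.00212 and −0.00264 over all genes. Of the members, 5 of 10 had a negative value in males and 9 of 10 in females, beside 50.5% and 50.9% of all genes. The difference between the KO effects of the sexes was called by edgeR for 0 of 10 (0.00811% of all genes), with 0 at an unadjusted p under 0.05 (5.96% of all genes) and 0 by DESeq2. A mean of the KO effects over both sexes, added after the separate results had been seen, also called 0 of 10 (0.17% of all genes), with 1 at an unadjusted p under 0.05 (9.57% of all genes) and 0 by DESeq2. At the unadjusted cut-off of 0.01 that the study used, 0 of 10 members passed in males and in females, beside 3.52% and 0.876% of all genes.

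A missed threshold does not show that the genes were unaffected, and the intervals give what remains possible. Cyp2e1 had a log2 value of 0.07 in males (95% interval −0.17 to 0.30) and of −0.00074 in females (−0.24 to 0.23), and Cyp1a2 of 0.08 (−0.15 to 0.31) and −0.08 (−0.31 to 0.15). The intervals reached further for Axin2, with −0.14 in males (−0.77 to 0.49) and 0.26 in females (−0.34 to 0.87), and for Tbx3, with −0.18 (−0.83 to 0.48) and −0.10 (−0.74 to 0.55). Rhbg had −0.22 in males (−0.59 to 0.14) and −0.21 in females (−0.57 to 0.14). Oat had 0.07 (−0.25 to 0.39) and −0.17 (−0.49 to 0.15), and Lgr5 had 0.08 (−0.42 to 0.57) and −0.09 (−0.57 to 0.38).

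**Figure D1:**
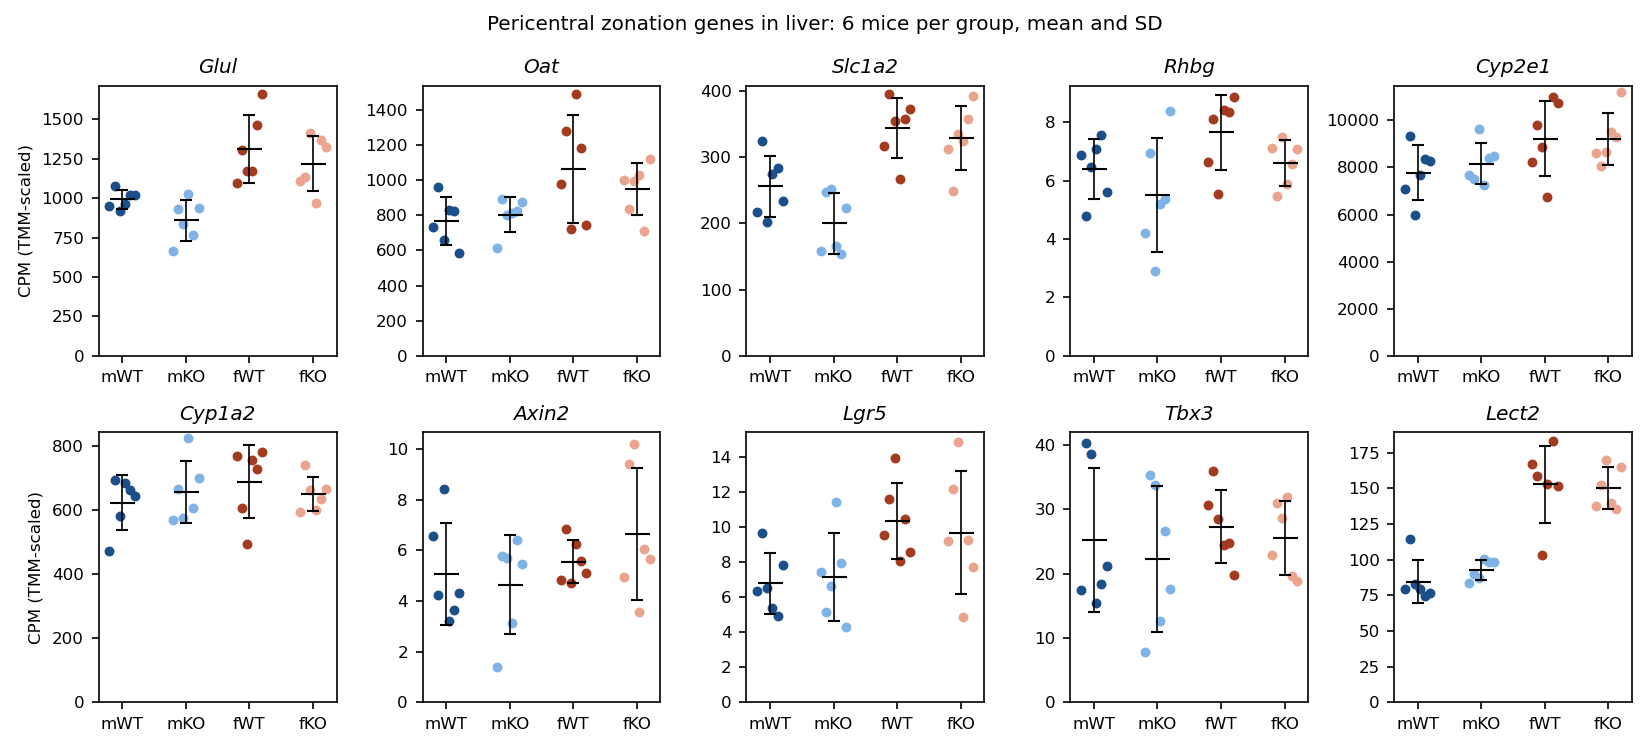
Levels of the 10 genes in each mouse, in CPM after TMM scaling on the vertical axis (from 0) and by group on the horizontal axis, with 6 mice per group; points are mice, long bars are means and whiskers are 1 SD. For Glul all mWT mice, at 917 to 1079 CPM, lie below all fWT mice, at 1098 to 1660 CPM.

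The largest member value for the KO was that of Slc1a2 in males. Slc1a2 encodes a glutamate transporter (ENSMUSG00000005089, GRCm38 chromosome 2, 102658659 to 102790784) and supplies pericentral hepatocytes with the substrate of glutamine synthetase. Its level ranged from 202 CPM over a median of 254 to 324 CPM in mWT mice and from 153 over 195 to 251 CPM in mKO mice. It ranged from 267 over 356 to 395 CPM in fWT and from 248 over 330 to 392 CPM in fKO mice. Of the mKO mice, 3 lay below every mWT mouse and the others overlapped with them. The log2 fold change was −0.36 in males (standard error 0.139, 95% interval −0.64 to −0.07), with an unadjusted p of 0.0168 and an adjusted p of 0.339 in the edgeR fit. In females it was −0.07 (standard error 0.138, adjusted p = 0.973), and the difference between the sexes was −0.29 (standard error 0.196, adjusted p = 0.887).

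Between the sexes several pericentral genes differed, and all that were called were lower in males. In WT mice 4 of 10 were lower in males, where 17.3% of all genes were called in either direction and 8.81% lower in males, and 0 were higher. These were Lect2, Glul, Slc1a2 and Oat. In KO mice 3 of 10 were lower in males, namely Lect2, Slc1a2 and Glul (14.4% of all genes called, 7.13% lower), and 0 were higher. The median log2 value of the members was −0.33 in WT and −0.35 in KO mice, beside −0.00204 and −0.00448 over all genes. All 10 members had a negative value in WT mice and 9 of 10 in KO mice, beside 50.4% and 50.9% of all genes. With the mean of both genotypes, added after the separate results had been seen, 6 of 10 were lower in males (30.4% of all genes called, 15.9% lower), the further ones being Lgr5 and Cyp2e1. The sex comparison in WT mice shares its mWT and fWT mice with the KO comparisons, and that in KO mice shares the mKO and fKO mice.

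**Figure D2:**
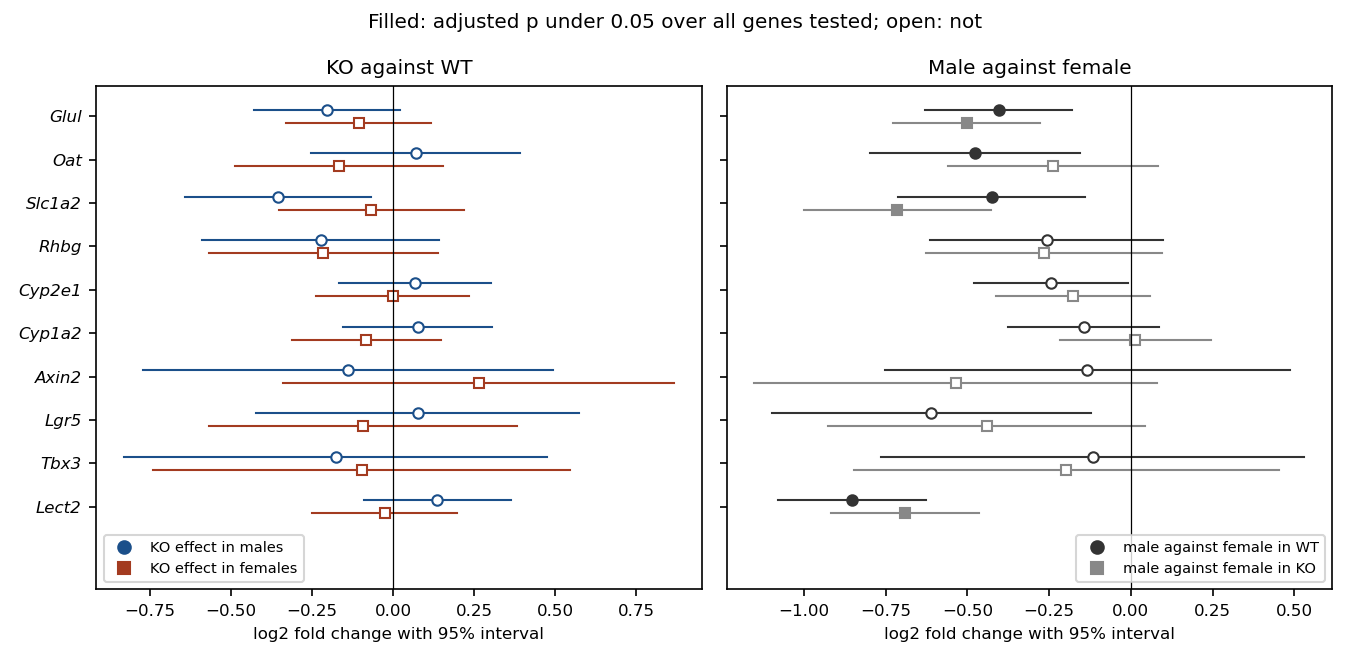
Log2 fold changes of the 10 genes with 95% intervals on the horizontal axes, KO against WT on the left for males and females and male against female on the right for WT and KO mice; filled symbols have an adjusted p under 0.05. All left symbols are open, and the filled symbols on the right are Lect2, Glul and Slc1a2 in both genotypes and Oat in WT mice.

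Lect2 showed the largest sex difference of the members. It encodes a protein that hepatocytes secrete and that is a known target of β-catenin in liver (ENSMUSG00000021539, chromosome 13, 56542464 to 56548502), and its promoter carries the ATCAAAG printed above. Its level ranged from 74.6 CPM over a median of 79.6 to 115 CPM in mWT mice and from 83.9 over 94.1 to 101 CPM in mKO mice. In females it ranged from 103 over 156 to 184 CPM in fWT and from 136 over 146 to 170 CPM in fKO mice. Every mKO mouse lay below every fKO mouse, as was so in the lower direction for 3.41% of all genes, and 5 of 6 mWT mice lay below every fWT mouse. Male mice were 1.81-fold lower in WT (log2 −0.85, standard error 0.110, adjusted p = 2.78e-06 in the edgeR fit) and 1.61-fold lower in KO mice (log2 −0.69, standard error 0.110, adjusted p = 5.58e-05). The KO effect was 0.14 in males (standard error 0.110, adjusted p = 0.734) and −0.03 in females (standard error 0.109, adjusted p = 0.990) on the log2 scale.

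Glul encodes glutamine synthetase, the enzyme that joins ammonia to glutamate and is made by the hepatocytes next to the central vein (ENSMUSG00000026473, chromosome 1, 153899944 to 153909723). Its level ranged from 917 over a median of 989 to 1079 CPM in mWT mice and from 665 over 882 to 1025 CPM in mKO mice. In females it ranged from 1098 over 1240 to 1660 CPM in fWT and from 968 over 1228 to 1409 CPM in fKO mice. The WT sexes did not overlap, as was so in the lower direction for 4.05% of all genes, and in KO mice 5 of 6 males lay below every female. Glul was 1.32-fold lower in WT males (log2 −0.40, standard error 0.110, adjusted p = 0.0110 in the edgeR fit) and 1.42-fold lower in KO males (log2 −0.50, standard error 0.110, adjusted p = 0.00203). For the KO it gave −0.20 in males (95% interval −0.43 to 0.02, adjusted p = 0.527) and −0.11 in females (−0.33 to 0.12, adjusted p = 0.946). A gene on the opposite strand, Teddm2, overlaps its exons but had only 360 reads over all mice.

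For Slc1a2, whose levels are given above, males were 1.34-fold lower in WT (log2 −0.43, standard error 0.139, adjusted p = 0.0344 in the edgeR fit) and 1.64-fold lower in KO mice (log2 −0.71, standard error 0.139, adjusted p = 0.000687). In WT mice 3 of 6 males and in KO mice 5 of 6 males lay below every female. The WT call was lost when any one of 7 WT mice was left out (mWT mice 1, 3 and 6 and fWT mice 2, 3, 5 and 6; adjusted p up to 0.0868), while the KO call held under every alternative run.

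Oat encodes ornithine aminotransferase, which turns ornithine into a precursor of glutamate (ENSMUSG00000030934, chromosome 7, 132557478 to 132576398). It ranged from 584 over a median of 780 to 963 CPM in mWT and from 616 over 819 to 892 CPM in mKO mice. It ranged from 721 over 1079 to 1491 CPM in fWT and from 710 over 999 to 1120 CPM in fKO mice, so that the sexes overlapped in both genotypes. Males were 1.39-fold lower in WT (log2 −0.48, standard error 0.156, adjusted p = 0.0362 in the edgeR fit). In KO mice the log2 value was −0.24 (95% interval −0.56 to 0.08, adjusted p = 0.329), and the KO value exceeded the WT value by 0.24 (95% interval −0.22 to 0.69, adjusted p = 0.920). The WT call was lost in 8 of 31 alternatives, among them each of mWT mice 1, 3 and 6 and fWT mice 2, 4 and 5 left out, with an adjusted p of up to 0.113.

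Rhbg, an ammonia transporter of the same cells (ENSMUSG00000104445, chromosome 3, 88242874 to 88254709), had medians of 6.66 CPM in mWT, 5.28 in mKO, 8.23 in fWT and 6.83 in fKO mice. It was called in neither sex comparison, with log2 values of −0.26 in WT (95% interval −0.61 to 0.10) and −0.27 in KO mice (−0.63 to 0.10). Its exons overlap those of Gm38392 on the same strand, a gene with 3022 reads in all and a nearly equal level, so the Rhbg count is uncertain. Gm38392 was named after its values had been seen.

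The drug-oxidising genes Cyp2e1 and Cyp1a2 were called by the edgeR fit in neither genotype, though Cyp2e1 passed in WT mice when fWT mouse 4 was left out (adjusted p = 0.0473). Cyp2e1 oxidises ethanol and paracetamol (ENSMUSG00000025479, chromosome 7, 140763739 to 140774987) and ranged from 5998 over a median of 7960 to 9329 CPM in mWT and from 6744 over 9327 to 10967 CPM in fWT mice. In KO mice it ranged from 7238 over 8021 to 9632 CPM in males and from 8055 over 8975 to 11193 CPM in females. Its log2 value for sex was −0.24 in WT (adjusted p = 0.146) and −0.18 in KO mice (adjusted p = 0.325). The mean of both genotypes was −0.21 (standard error 0.0811) with an adjusted p of 0.0499, and this call was lost in 21 of 30 alternatives, with an adjusted p between 0.0147 and 0.0922. Cyp1a2, the enzyme that clears caffeine (ENSMUSG00000032310, chromosome 9, 57676937 to 57683703), had medians of 655, 637, 744 and 651 CPM in mWT, mKO, fWT and fKO mice. Its log2 value for sex was −0.14 in WT (95% interval −0.37 to 0.09) and 0.01 in KO mice (−0.22 to 0.24).

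The remaining members belong to Wnt signalling or are its targets. Lgr5 is a receptor for R-spondins (ENSMUSG00000020140, chromosome 10, 115450311 to 115587780), and it ranged from 4.94 over a median of 6.44 to 9.65 CPM in mWT and from 8.04 over 9.97 to 13.9 CPM in fWT mice. In KO mice it ranged from 4.28 over 7.02 to 11.4 CPM in males and from 4.84 over 9.22 to 14.8 CPM in females. Of the mWT mice, 5 of 6 lay below every fWT mouse, whereas the KO sexes overlapped broadly. The log2 value was −0.61 in WT (95% interval −1.10 to −0.12, adjusted p = 0.0784) and −0.44 in KO mice (−0.93 to 0.04, adjusted p = 0.222), and the mean of both genotypes passed at −0.53 (standard error 0.166, adjusted p = 0.0192). The WT value passed with DESeq2 (adjusted p = 0.0454), with only the 12 WT libraries (0.0199) and without mWT mouse 2 (0.0411) or fKO mouse 4 (0.0446). Axin2, which restrains the pathway that induces it (ENSMUSG00000000142, chromosome 11, 108920349 to 108950783), had medians of 4.28, 5.58, 5.36 and 5.87 CPM in mWT, mKO, fWT and fKO mice. Its log2 sex values were −0.13 (−0.75 to 0.49) in WT and −0.54 (−1.15 to 0.08) in KO mice. Tbx3, a T-box transcription factor and β-catenin target (ENSMUSG00000018604, chromosome 5, 119670669 to 119684724), varied most among males. It ranged from 15.4 to 40.3 CPM in mWT and from 7.90 to 35.3 CPM in mKO mice, and from 19.7 to 36.0 CPM in fWT and from 18.9 to 31.9 CPM in fKO mice. Its log2 sex value was −0.12 in WT (−0.77 to 0.53) and −0.20 in KO mice (−0.85 to 0.45).

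Other genes of the same zone, of the opposite zone and of the pathway were taken as lists, chosen with earlier results of these data known. For the KO in males and in females, 0 genes of any list were called by the edgeR fit. The lowest adjusted p among the 27 tested of 28 other pericentral genes in males was 0.135, for Cyp7a1, the rate-limiting enzyme of bile acid synthesis, with a mean of 425 CPM in mWT and 121 CPM in mKO mice (log2 −1.81, standard error 0.471). At the unadjusted cut-off of 0.01 that the study used, 4 of these 27 passed in males, where 3.52% of all genes did. In females 1 passed, where 0.876% of all genes did. Cyp7a1 was among the 4 in males, and the study names it among its top downregulated genes in mKO mice.

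Of the other pericentral genes, 2 of 27 were higher and 9 lower in WT males, where 8.51% of all genes were higher and 8.81% lower. In KO males 4 were higher and 9 lower, where 7.26% of all genes were higher and 7.13% lower, and the list medians were −0.07 and −0.12. Cyp2c37, a cytochrome P450 that oxidises arachidonic acid, was lower (log2 −1.93 in WT, standard error 0.182, adjusted p = 3.51e-08 in the edgeR fit), and so was Pon1, a lipid-protecting esterase carried on HDL (−0.71, standard error 0.0997). Mgst1, a glutathione transferase, was higher in both genotypes (0.49 in WT, standard error 0.0861, and 0.63 in KO mice, standard error 0.0862). Aldh1a1, which makes retinoic acid, was also higher in both (0.66 in WT, standard error 0.139, and 0.92 in KO mice, standard error 0.139). Of 23 periportal genes, 1 was higher and 6 lower in WT males and 3 higher and 3 lower in KO males, beside the same shares of all genes, with medians of 0.01 in both. Ctsc, a lysosomal protease, was lower (−1.36 in WT, standard error 0.161) and Cyp2f2, the classic periportal P450, was higher (0.70, standard error 0.111).

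Among 16 tested of 17 Wnt ligands, enhancers and receptors, 1 was lower in WT males, the receptor Fzd8, at a mean of 12.2 CPM in mWT and 21.6 CPM in fWT mice (log2 −0.82, standard error 0.171, adjusted p = 0.00153 in the edgeR fit). In KO mice Fzd8 (−1.21, standard error 0.173) and the ligand Wnt4 (−0.82, standard error 0.260) were lower, and 0 were higher in either genotype. The list median was −0.25 in WT and −0.24 in KO mice. Among 22 tested of 24 transducers and inhibitors, 2 were higher and 3 lower in WT males, and 1 higher and 2 lower in KO males. For both lists the shares of all genes were 8.51% higher and 8.81% lower in WT males. In KO males they were 7.26% higher and 7.13% lower. Notum, a secreted enzyme that inactivates Wnt proteins, was lower in males (−0.80 in WT, standard error 0.108, adjusted p = 5.19e-06). The transcription factor Tcf7 was lower too (−0.79, standard error 0.157), and the kinase Gsk3b, which marks β-catenin for breakdown, was higher in males (0.41, standard error 0.0743). Tnks was the other gene of this list that was higher in WT males (0.34, standard error 0.0694).

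Of 17 tested of 25 genes of glutamate, glutamine and ornithine metabolism, 0 were called by sex in WT mice by the edgeR fit, where 17.3% of all genes were. In KO mice, where 14.4% of all genes were called, Got2, an aspartate aminotransferase, was higher (0.26, standard error 0.0811) and Odc1, which turns ornithine into putrescine, was lower in males (−0.38, standard error 0.121). Of 9 tested of 10 aryl hydrocarbon receptor genes, the system that induces Cyp1a2, 2 were lower in WT males and 3 in KO males. The shares of all genes lower in males were 8.81% in WT and 7.13% in KO mice. The quinone reductase Nqo1 led the list (−1.03 in WT, standard error 0.159). The receptor gene Ahr is also in the list of other pericentral genes, and was called by sex in neither genotype (0.01 in WT and −0.22 in KO mice).

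**Figure D3:**
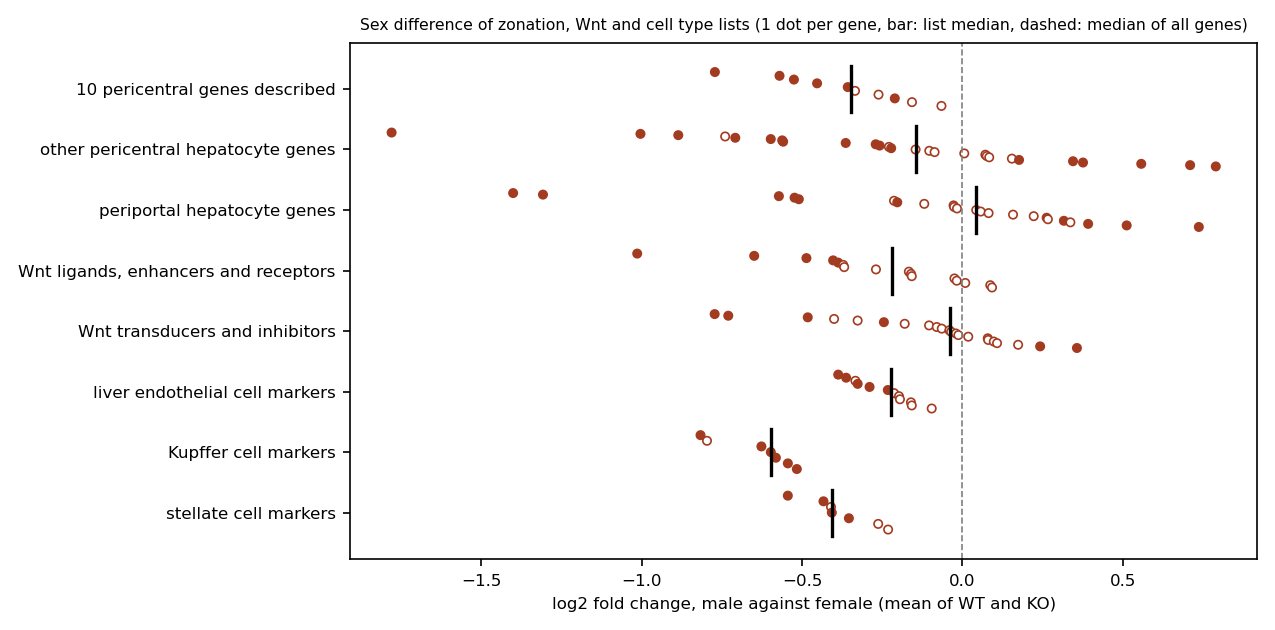
Log2 fold change of male against female mice, as the mean of both genotypes, for each tested gene of 8 lists on the horizontal axis; filled points have an adjusted p under 0.05, bars are list medians and the dashed line is the median of all genes. Points of the 10 pericentral genes lie below 0, with a median of −0.35, while the other pericentral and the periportal genes lie on both sides.

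All markers of liver endothelial, Kupffer and stellate cells also had negative values for males against females. Over all genes, 8.81% were called lower in WT males, and 7.13% lower and 7.26% higher in KO males. The endothelial list shares Rspo3, Wnt2 and Wnt9b with the list of Wnt ligands, enhancers and receptors. Of 12 liver endothelial markers, 12 had a negative value in WT and in KO mice, with 3 and 1 called lower in males, and their summed level was 188 to 221 CPM in mWT against 207 to 294 CPM in fWT mice. In KO mice it was 188 to 229 CPM in males and 194 to 282 CPM in females. Of 7 Kupffer cell markers, 4 were lower in WT males and 0 in KO males, with sums of 80.5 to 162 CPM in mWT, 75.7 to 213 in mKO, 146 to 267 in fWT and 120 to 215 in fKO mice. Of 7 stellate cell markers, 2 were lower in WT and 3 in KO males, with sums of 172 to 309 CPM in mWT, 175 to 252 in mKO, 261 to 334 in fWT and 221 to 334 in fKO mice. Of 9 hepatocyte markers, 1 was lower in WT males, and in KO males 1 was lower and 2 were higher. Negative values were held by 3 of the 9 in each genotype. The summed level of the 9 had a median of 119437 CPM in mWT, 130168 in mKO, 135603 in fWT and 141494 in fKO mice. Ranges of this sum were 107195 to 141890 CPM in mWT, 111864 to 142870 in mKO, 115131 to 165593 in fWT and 138815 to 168870 in fKO mice. Of 3 tested cholangiocyte markers, 1 was lower in WT males and 0 in KO males, and of 4 tested lymphocyte and blood markers, 1 was lower in WT and 2 were higher in KO males. No marker of these lists was at 0 in all 24 mice, and the part of these cells in the sex differences of the members was not tested.

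Within the groups, the 10 genes varied only loosely together. After the group means were removed from log2(CPM + 0.5), Pearson's r over the 24 mice had a median of 0.17 over the 45 pairs, from −0.40 to 0.71, with 4 pairs above 0.5 and 11 below 0. These values are descriptions, and both genes of a pair share the library, its depth and its scaling. The closest pair was Slc1a2 and Cyp2e1 (r = 0.71, Spearman's rho 0.72), which stayed at r = 0.64 without the 2 mice farthest from the median of Slc1a2. Axin2 and Tbx3 had r = 0.63 (rho 0.50), which came to 0.40 without 2 mice, and mKO mouse 1 lay far below its group in both. Cyp1a2 with Lect2 (0.60, rho 0.52) and Oat with Lect2 (0.57, rho 0.49) came to 0.41 and 0.49 in the same way. Rhbg and Lgr5 had the most negative value (−0.40, rho −0.53). Glul had r = 0.48 with Slc1a2 and 0.04 with Oat.

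**Figure D4:**
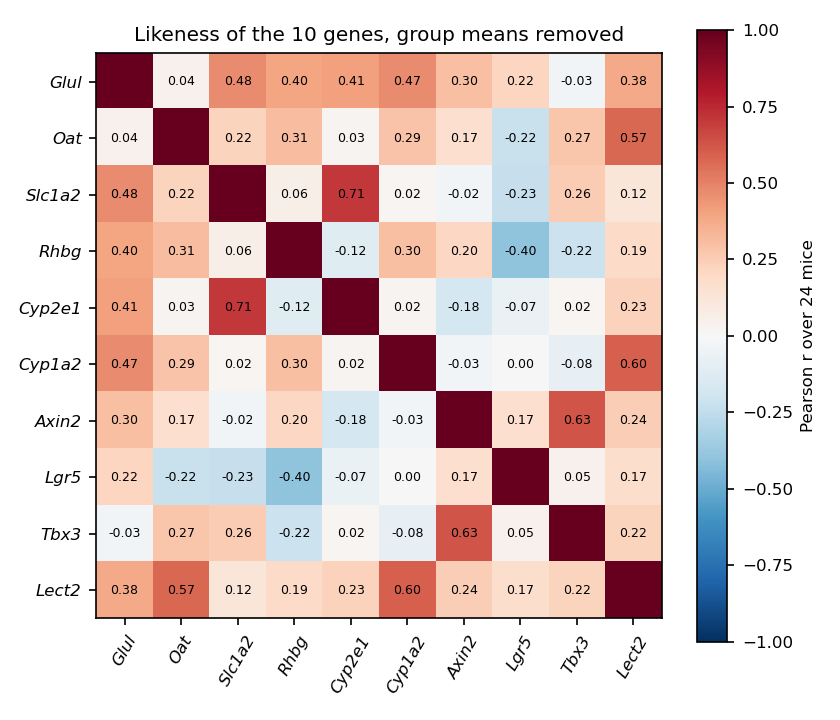
Pearson's r between each pair of the 10 genes over 24 mice, after removal of the group means; both axes list the genes and colour and printed value give r. Most squares are pale, and the strongest are Slc1a2 with Cyp2e1 at 0.71 and Axin2 with Tbx3 at 0.63.

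**Figure D5:**
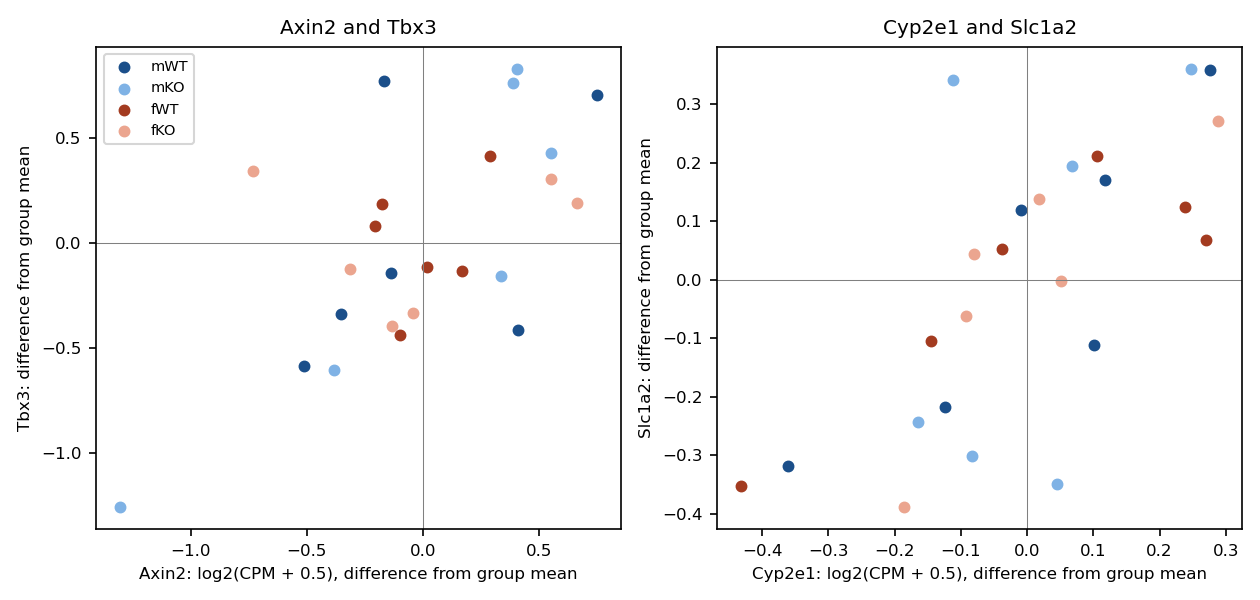
Differences of single mice from their group mean, in log2(CPM + 0.5), for Axin2 against Tbx3 and for Cyp2e1 against Slc1a2, with 1 point per mouse coloured by group. The point farthest to the lower left in the first panel is mKO mouse 1, at −1.30 for Axin2 and −1.26 for Tbx3.

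Over the 9000 tested genes with a mean of at least 5 CPM, the 3 genes most like each member included 0 other members. Cyp2e1 was closest to Pex11a (r = 0.90), Eci2 (0.88) and Slc25a20 (0.87). Tbx3 was closest to Cyp2b9 (0.83), Cyp2c38 (0.83) and Vldlr (0.80), Oat to Apoc1 (0.85), and Lect2 to Bphl (0.83). Glul was closest to Trap1 (0.76), Slc1a2 to Rab30 (0.76), Cyp1a2 to Fmc1 (0.76), Axin2 to Ephb4 (0.73) and Lgr5 to Tcf4 (0.70). Rhbg was closest to its overlapping neighbour Gm38392 (0.96). All these values are over 24 mice, after the group means were removed. Each was picked as one of the 3 highest over 9000 genes, so a high r arises by selection and is a description only. With so few members among the genes compared, their absence from these places carries little weight.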

How the data were processed

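Liver RNA from 24 mice was sequenced as stranded mRNA libraries, 1 per mouse. The authors trimmed reads with fastp 0.20, aligned them with STAR 2.7a to GRCm38.p6 and deposited raw counts per Ensembl gene, without normalization or filter. The strand setting and the treatment of reads on overlapping genes are not given in the sources used here. Symbols, coordinates and exon lengths came from GENCODE M21 (25635 of 25746 identifiers matched), and promoters from RefSeq.

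Counts were fitted with edgeR 4.0.16 under R 4.3.3 (a filter of 0.66 CPM in no fewer than 6 libraries, TMM factors, robust quasi-likelihood with the deviances of earlier edgeR versions, 1 mean per group). Standard errors were derived from the F statistic. The procedure was tested on simulated data. All p-values are two-sided. Labels do not name cages or litters, so the tests treat the mice as independent and could not account for either. The paper states that likelihood ratio tests excluded effects of birth date, cage and batch, but does not say that these covered the RNAseq data. Replicates of a group always differed beyond sampling noise (lowest chi-square per gene 8.07).

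The members and gene lists were chosen with earlier results of these data known. All members are named. Of each list and comparison, up to 4 genes with an adjusted p under 0.05 could be named, or otherwise up to 2 with the lowest p, and for each member the 3 most alike genes. The means over both sexes and both genotypes were added after seeing the data. Alternatives were DESeq2 1.42.0, its size factors, no filter, filterByExpr, removal of the Mup genes, a replicate block, only the 12 libraries compared, and each mouse left out. Figures were drawn with matplotlib 3.10.9.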

Additional observations from a re-analysis of the deposited data

Results flagged for a closer look

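For each of the 10 genes in each of the 4 groups, the highest and the lowest of the 6 mice were compared with the nearest other mouse, and a mouse stood apart when this gap, as a share of the range of its group, was above Dixon's 95% critical value for 6 samples. Chance alone gives such a gap in about 1 in 20 groups, and 2 were found in 40. Oat was lowest in mKO mouse 1, at 616 CPM, while the next mouse of the group had 804 CPM, a gap of 0.682 of the range. Lect2 was highest in mWT mouse 2, at 115 CPM, while the next mouse had 83.0 CPM, a gap of 0.789 of the range.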

How the results depend on the processing

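Lect2 and Glul kept their sex calls in both genotypes under every alternative run, as did Slc1a2 in KO mice, and 0 members were called for the KO in either sex under any. In WT mice the number of members called by sex ranged from 2 to 5 with 1 mouse left out, and was 2 without mWT mouse 1, 3 or 6 or fWT mouse 2 or 5. The Lgr5 call in WT mice was gained with DESeq2, with only the 12 libraries compared, and without mWT mouse 2 or fKO mouse 4, that of Cyp2e1 without fWT mouse 4, and that of Rhbg for the mean of both genotypes without mKO mouse 6 (adjusted p = 0.0276). Same-numbered mice did not deviate together (correlations from −0.34 to 0.17), and the replicate block gave 26 called genes in KO males, 16 in females, 1747 by sex in WT and 1374 in KO mice, and 4 and 3 called members by sex.

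Over all genes, the 26 calls of the KO in males became 139 with DESeq2, 2 without the Mup genes, 49 with the 12 libraries only, and 19 to 59 with 1 mouse left out (59 without mWT mouse 1, 40 without mWT mouse 2). The 11 calls in females became 18 with DESeq2 and 0 without the Mup genes, the 1 call for the difference became 11 with DESeq2, and the 21 calls for the mean of both sexes became 50 with DESeq2 and 1 without the Mup genes. Removing the Mup genes takes their own calls away, and the cause of the other shifts was not tested.

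Uncalled values near 0 changed sign. On the log2 scale, Cyp2e1 for the KO in females was 0.0063 with DESeq2 and with its size factors, 0.0016 without a filter, 0.0038 with filterByExpr, 0.0017 without the Mup genes, 0.010 with the replicate block and 0.00094 with the 12 libraries. Cyp1a2 for the mean KO effect was 0.0011 with DESeq2 and with its size factors, 0.00025 with filterByExpr and 0.0035 with the replicate block. With 1 mouse left out, KO values in males ranged from −8.1e-06 to 0.114 for Cyp1a2, −0.250 to 0.0686 for Axin2, −0.108 to 0.203 for Lgr5 and −0.362 to 0.00635 for Tbx3. In females they ranged from −0.130 to 0.00314 for Slc1a2, −0.0763 to 0.0558 for Cyp2e1, −0.251 to 0.0458 for Lgr5 and −0.117 to 0.0330 for Lect2. The difference ranged from −0.167 to 0.122 for Rhbg, −0.0161 to 0.327 for Lgr5 and −0.264 to 0.104 for Tbx3, and sex in KO mice from −0.0618 to 0.0520 for Cyp1a2. The mean KO effect ranged from −0.0945 to 0.0106 for Oat, −0.00442 to 0.0627 for Cyp2e1, −0.0435 to 0.0157 for Cyp1a2, −0.0165 to 0.166 for Axin2 and −0.100 to 0.0616 for Lgr5.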
